A study of Mus musculus with 12 samples.

Results

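In macrophages stimulated with lipopolysaccharide (LPS), 926 genomic regions were listed for the transcription factor RelA at 3 h, had no listed Ikaros at 0 or 3 h, and were listed for Ikaros at 8 h. They were chosen by overlap of hotspot lists, a hotspot being a stretch of genome where the authors called more sequence tags than background. A region entered when its wild-type RelA 3 h hotspot overlapped no hotspot of input DNA, overlapped at least 1 bp of a wild-type Ikaros 8 h hotspot, and overlapped none of wild-type Ikaros at 0 or 3 h. The 926 made up 18.6% of the 4972 RelA 3 h hotspots outside input. Of the others, 2106 met Ikaros at 3 and 8 h and not at 0 h, 308 met it at 3 h only, 274 met a hotspot of resting cells, and 1358 met none. Presence of RelA at 3 h and of Ikaros at 0, 3 and 8 h was thus used by the rule. RelA at 8 h and the RelA lists of littermate control cells were not. The number depended on how deep the lists go. It was 401 when only the strongest Ikaros 8 h hotspots, as many as at 3 h, were used. It was 608 when RelA 3 h hotspots with a z score below the lowest of the RelA 8 h list were left out.

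All libraries came from primary mouse macrophages grown from bone marrow of the C57BL/6J background, and chromatin bound by RelA or Ikaros was recovered with antibody and sequenced (ChIP-seq). The wild-type groups were RelA at 0, 3 and 8 h of LPS, Ikaros at 0, 3 and 8 h, and untreated input DNA. Cells of a further genotype label, littermate control, had RelA at 0, 3 and 8 h. The labels give no alleles for it, and no Ikaros list of these cells was used here. Each group was 1 library, so no spread between replicates exists, and every interval below is a 95% interval for counting error over regions alone. The labels do not say whether libraries of different factors came from the same cells, and neighbouring hotspots are not independent. Hotspots carry no expression, so the cell type could not be checked by markers.

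RelA is a DNA-binding subunit of NF-kB. In resting cells NF-kB is held in the cytoplasm by inhibitor proteins of the IkB family. LPS is sensed by Toll-like receptor 4, the inhibitors are degraded, and NF-kB enters the nucleus, where it binds kB sites at promoters and enhancers of inflammatory genes. The response is limited by newly made inhibitor. Ikaros, encoded by Ikzf1, is a zinc finger protein best known in lymphocyte development, where it binds DNA through a short GGGA-containing core and works with chromatin remodelling complexes in repression and activation.

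Lists differed in how weak a hotspot they held. The lowest z score, the authors' measure of enrichment within a library, was 8.88 for RelA at 3 h and 10.9 at 8 h, and 9.90, 9.82 and 9.75 for Ikaros at 0, 3 and 8 h. The 7109 Ikaros hotspots outside input at 3 h stood against 13796 at 8 h. For RelA, 47, 4972 and 1878 hotspots lay outside input at 0, 3 and 8 h in wild type. In littermates these numbers were 5805, 9999 and 5231. Reads per library are unknown. The file names of 6 libraries, among them wild-type RelA and Ikaros at 0 and 8 h, hold another time than their labels or another time beside it. Labels were used throughout, and the order of binding described here rests on them.

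RelA at these regions was of moderate strength at 3 h. The median RelA z score was 12.2 (quartiles 10.3 and 16.4, range 8.89 to 74.4). It was 15.1 at the regions with Ikaros at 3 and 8 h, 11.0 at those with no Ikaros and 12.9 over all RelA 3 h hotspots. The median of the highest tag density, whose scale is not stated, was 18.1 against 21.5 and 15.8 in the same order. Their hotspots had a median width of 517 bp, against 621 bp with Ikaros at 3 and 8 h and 444 bp with no Ikaros. Width followed strength closely in this library (Spearman's rho 0.91 across the 926 regions, which share 1 library).

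The strongest RelA signals at these regions persisted. The region ranked first lay at chr18:61234028-61234934 on mm9. Its RelA z score was 74.4 at 3 h and 61.9 at 8 h in wild-type cells, and 12.1, 49.1 and 56.4 at 0, 3 and 8 h in the littermate series, with an Ikaros z of 16.1 at 8 h. The second, chr2:57149658-57150539, had RelA z scores of 66.9 and 90.6 at 3 and 8 h in wild type and 59.4 and 64.5 in littermates, with Ikaros at 21.3. Both were listed for RelA in every library after LPS. Before LPS, the wild-type RelA list held 83 hotspots, 47 of them outside input, so few regions of any kind could be listed. It met 1 of the 926, 0.108% (0.00273 to 0.600), against 0.744% of all RelA 3 h hotspots. That was the region ranked next by RelA strength, chr7:29227568-29228414, with z scores of 10.4, 55.1 and 57.5 at 0, 3 and 8 h and Ikaros at 20.6.

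Every one of the 10 regions with the highest RelA z at 3 h was listed for RelA at 8 h. Those that followed were chr8:93605681-93606415 (RelA z 52.1 at 3 h and 43.1 at 8 h), chr8:95404981-95405740 (50.0 and 60.4), chr12:99521094-99521974 (49.3 and 35.1) and chr6:52855452-52856305 (48.0 and 33.6). The last of the 10 were chr13:98280437-98281267 (47.4 and 29.9), chr19:41419216-41420099 (45.6 and 30.1) and chr9:7872706-7873563 (44.9 and 32.4). Ikaros z at 8 h ranged among the 10 from 11.5, at the chr19 region, to 35.1, at chr8:95404981-95405740. The z score is scaled within a library, so these pairs show presence and rank within lists and not the size of a change. In the littermate series 9 of the 10 were listed at 3 h and all 10 at 8 h, the exception at 3 h being the chr19 region. In the top quintile of RelA z over the whole 3 h list, wild-type RelA was listed at 8 h at 83.7% of these regions. There, regions with Ikaros at 3 and 8 h stood at 81.3%, with no Ikaros at 66.3% and with Ikaros at 3 h only at 19.2%. Shares in the same order were 84.4%, 85.0%, 61.4% and 38.5% in littermates at 3 h, and 64.5%, 56.8%, 31.3% and 7.69% at 8 h.

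RelA was still listed at 8 h at 349 of the 926 regions, 37.7% (34.6 to 40.9), and was not listed at 577. Over all RelA 3 h hotspots the share was 31.3%. The RelA list held 1878 hotspots outside input at 8 h against 4972 at 3 h, which limits how large this overall share can be. The retained regions had been stronger at 3 h, with a median RelA z of 16.4 (quartiles 12.4 and 22.9) against 11.0 (9.83 and 13.0) for those no longer listed, and wider, with medians of 635 and 444 bp. At 8 h the median RelA z of the retained regions was 16.7 in a list that began at 10.9. Of the 926, 318 had a 3 h z below that value, and 45 of these, 14.2% (10.5 to 18.5), were listed at 8 h. Of the other 608, 304 were, 50.0% (46.0 to 54.0). A region that lost RelA and one that slipped below the 8 h threshold cannot be told apart in the lists.

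Some strong RelA regions were no longer listed at 8 h although Ikaros had become listed there. The 5 with the highest RelA z at 3 h were chr5:139307631-139308467 (RelA z 42.2 at 3 h, Ikaros z 11.9 at 8 h), chr10:80591594-80592471 (35.3 and 10.4), chr2:11445281-11446123 (33.4 and 14.8), chr13:37751898-37752683 (29.0 and 10.6) and chr11:95895169-95896047 (28.4 and 11.7). Ikaros was at most at the 52.7 percentile of its 8 h list at these regions. In the littermate series 4 of the 5 were listed at 3 h, with RelA z between 12.1 and 24.1, and only the chr2 region was listed at 8 h, with a z of 11.7, having been listed there at 0 h too, with 16.3. The chr13 region was in no littermate list.

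**Figure D1:**
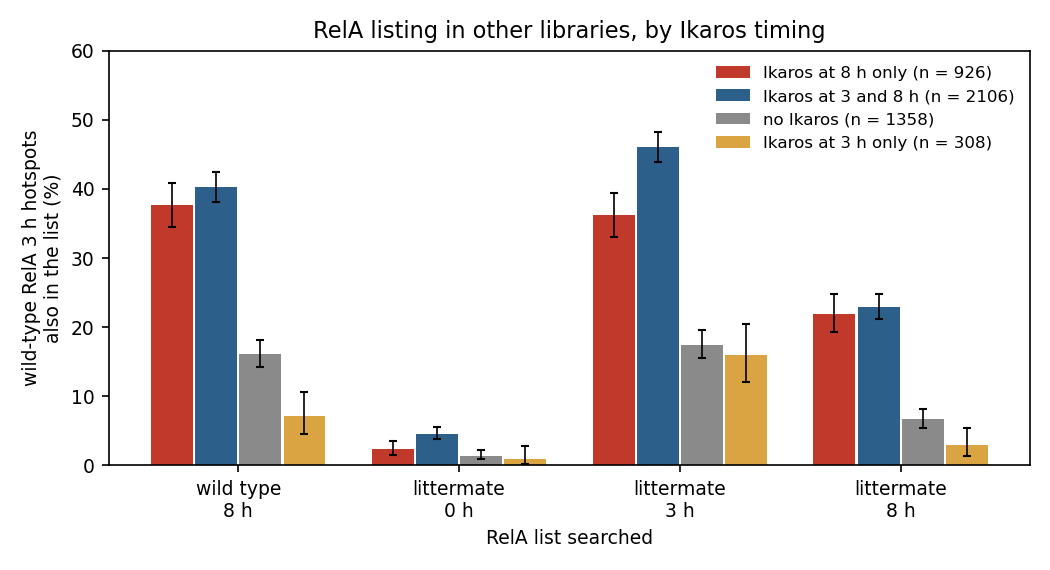
Share of wild-type RelA 3 h hotspots (vertical axis, %) that were also in the RelA list named on the horizontal axis, parted by when Ikaros was listed in wild-type cells. Bars are shares of 926, 2106, 1358 and 308 hotspots and whiskers exact 95% intervals, and the 274 with Ikaros in resting cells (43.1% at 8 h) are not drawn. At 8 h the regions reached later by Ikaros stand at 37.7%, near those with Ikaros at 3 and 8 h (40.3%) and above those with no Ikaros (16.1%) or with Ikaros at 3 h only (7.14%).

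Regions listed late for Ikaros were listed for RelA at 8 h far more often than regions never listed for Ikaros. RelA was listed at 8 h at 219 of the 1358 regions with no Ikaros, 16.1% (14.2 to 18.2), a difference of 21.6 percentage points (17.9 to 25.2, Newcombe interval). At the 2106 regions with Ikaros at 3 and 8 h it was listed at 848, 40.3% (38.2 to 42.4), and the difference of -2.58 points (-6.30 to 1.21) was within counting error. At the 308 regions with Ikaros at 3 h only the share was 7.14% (4.53 to 10.6), lower by 30.5 points (25.9 to 34.5). The 274 regions with Ikaros in resting cells had the highest share, 43.1% (37.1 to 49.2), and the difference of the 926 from them was -5.38 points (-12.0 to 1.17). These groups differ in RelA strength, with which persistence rose steeply.

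RelA strength was therefore held equal by comparing regions within quintiles of the RelA z score over the whole 3 h list. Among the 926, retention climbed with RelA strength through 12.3% (7.96 to 17.9), 18.1% (13.1 to 24.0), 35.7% (29.4 to 42.4), 54.5% (46.6 to 62.2) and 83.7% (76.5 to 89.4). It was above that of the regions with Ikaros at 3 and 8 h in 5 of 5 quintiles, by 2.41 to 15.4 points, with an interval above 0 in 2 of them. In quintiles 3 and 4 those regions stood at 20.4% (16.4 to 24.8) and 39.4% (35.1 to 43.8). Weighted by the quintile sizes of the 926, the difference was 8.74 points (5.56 to 11.9), and 9.25 points (6.07 to 12.4) with 10 strata. Against the regions with no Ikaros the weighted difference was 14.6 points (11.1 to 18.2), with the interval above 0 in 5 of 5 quintiles. Against the regions with Ikaros in resting cells it was 6.38 points (0.241 to 12.5).

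**Figure D2:**
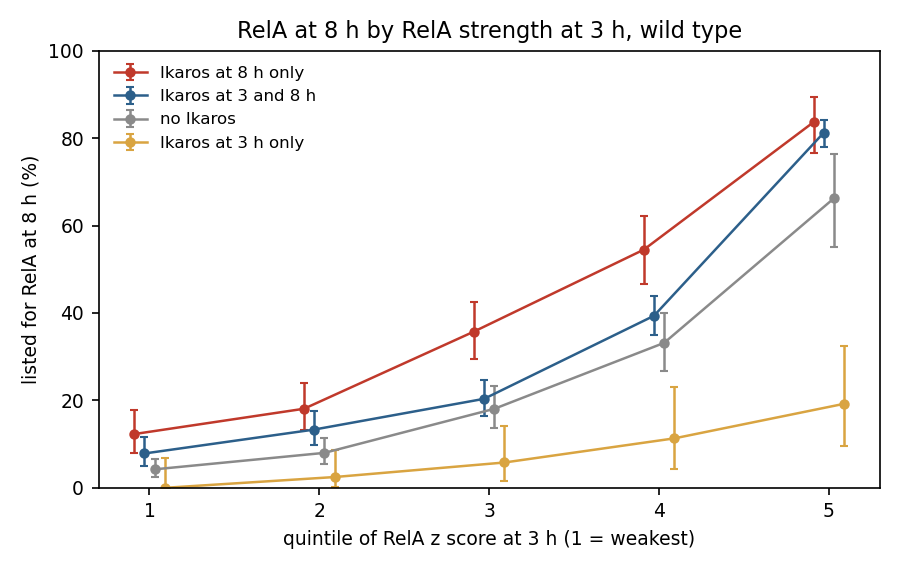
Share of wild-type RelA 3 h hotspots listed for RelA at 8 h (vertical axis, %) in each quintile of RelA z score at 3 h (horizontal axis), for the same 4 kinds of region. Points are shares and whiskers exact 95% intervals. The regions with Ikaros at 8 h only are highest in each quintile, by 15.4 points over those with Ikaros at 3 and 8 h in quintile 3 and by 2.41 points in quintile 5.

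Regions listed for Ikaros at 3 h were less often listed for RelA at 8 h than regions of equal RelA strength that were not, among those with Ikaros at 8 h. The same direction was seen without Ikaros at 8 h. There, the regions with Ikaros at 3 h only were below those with no Ikaros by 16.6 points at equal strength (interval of the difference -20.5 to -12.8). The strength of Ikaros at 8 h also differs between these groups. With strata of both RelA z at 3 h and Ikaros z at 8 h, the 926 regions lay 13.2 points (9.58 to 16.8) above those with Ikaros at 3 and 8 h. Whether an overlap call at 3 h marks the same property in each library was not tested. The groups also differ in whether Ikaros listing was gained, kept or lost between 3 and 8 h. In this design that cannot be told apart from listing at 3 h, and the cause of the differences was not tested.

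The rule did not use the RelA lists of littermate control cells. In those cells the share of the 926 regions listed at 3 h was near that of all RelA 3 h hotspots. Of the 926, 22 were listed there at 0 h, 2.38% (1.49 to 3.58), 335 at 3 h, 36.2% (33.1 to 39.4), and 203 at 8 h, 21.9% (19.3 to 24.7). Over all RelA 3 h hotspots these shares were 3.58%, 34.4% and 17.1%. Of the 335 and 203, 322 and 201 had a highest density of 10 or more in the littermate list, much as for all RelA 3 h hotspots found in those lists, 1625 of 1712 and 842 of 851. Over the whole littermate lists the median highest density was 4.11 at 3 h and 4.56 at 8 h. In the wild-type RelA lists it was 18.5 and 25.5, so littermate and wild-type shares come from unlike lists. At 8 h the 926 exceeded the regions with no Ikaros by 15.2 points (12.3 to 18.3), or 11.9 points (8.81 to 14.9) at equal strength. They exceeded those with Ikaros at 3 and 8 h by 7.26 points (4.63 to 9.90) at equal strength, while the unadjusted difference was -1.01 points (-4.16 to 2.27).

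At 3 h in littermates the 926 did not separate from regions with Ikaros at both times once RelA strength was held equal, the difference being 1.48 points (-1.78 to 4.74). Before that adjustment it was -9.93 points (-13.6 to -6.14). Persistence within the littermate series was read among regions listed there at 3 h. Of the 335, 180 were listed at 8 h, 53.7% (48.2 to 59.2), against 46.2% of all 1712 RelA 3 h hotspots listed there at 3 h. The share was 47.7% (44.5 to 50.9) of 971 regions with Ikaros at both times, and the difference of 6.05 points (-0.158 to 12.2) was within counting error. At equal wild-type RelA strength the 335 were higher than the 971 by 14.7 points (8.98 to 20.5). Among regions with no Ikaros the share was 32.9% (27.0 to 39.3). RelA strength in the littermate 3 h library itself was not held equal. The littermate lists began at a z score of 8.64 at 3 h and 10.5 at 8 h.

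Regions that retained RelA in wild type were also listed more often in littermates. Of the 349 retained in wild type, 180 were in the littermate 8 h list, 51.6% (46.2 to 56.9), against 23 of the 577 not retained, 3.99% (2.54 to 5.92). In the littermate 3 h list the corresponding shares were 69.6% (64.5 to 74.4) and 15.9% (13.1 to 19.2). Retained regions were also stronger in RelA at 3 h, and within quintiles of that strength the differences were 44.0 points (37.0 to 51.1) at 8 h and 42.6 points (34.2 to 51.0) at 3 h. The pattern was general: over all RelA 3 h hotspots, 50.0% (47.5 to 52.5) of those retained and 2.14% (1.68 to 2.68) of those not retained were in the littermate 8 h list. For the littermate 3 h list these shares were 75.3% (73.0 to 77.4) and 15.8% (14.6 to 17.1). Of retained regions with Ikaros at 3 and 8 h, 82.3% were in that 3 h list, and of those with no Ikaros 56.2%. RelA was present in wild type at 8 h and in littermates at 3 and 8 h at 162 regions, 17.5% (15.1 to 20.1), against 14.7% of all RelA 3 h hotspots. It was in none of these 3 lists at 480, 51.8% (48.6 to 55.1), against 57.5% of all. Highest densities of the 335 shared regions correlated between wild type and littermates at 3 h (Spearman's rho 0.54, across regions that share both libraries).

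Ikaros listed at 8 h at these regions was weaker than at regions where it was already listed at 3 h. Its median z at 8 h was 13.5 (quartiles 11.5 and 16.8, range 9.75 to 36.4), against 20.7 at regions with Ikaros at 3 and 8 h and 14.4 in the whole 8 h list outside input. The Ikaros 8 h hotspots new at that time that overlapped no wild-type RelA 3 h hotspot, 6989 in number, had a median z of 12.4. Median highest densities ran in the same order, at 21.8 for the 926, 31.1 with Ikaros at both times and 19.9 for those 6989. Among the 926, 72 reached the strongest quintile of the Ikaros list, 7.78% (6.13 to 9.69), against 45.8% (43.6 to 47.9) with Ikaros at both times. The lower quintiles held 199, 228, 225 and 202 of them from the weakest up. As the rule used this list, these values are a description. Ikaros new at 8 h and Ikaros present but too weak for the 3 h list cannot be told apart in the lists.

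**Figure D3:**
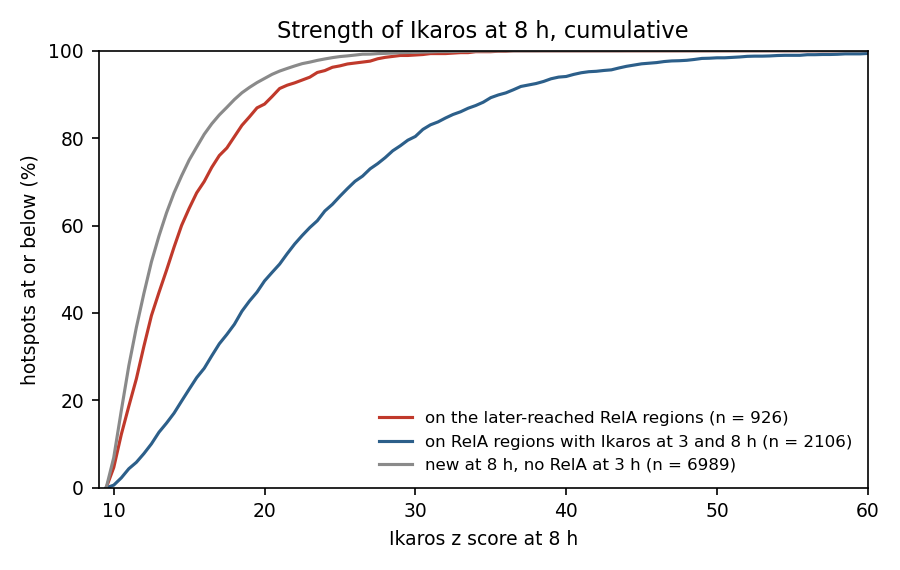
Cumulative share of Ikaros hotspots (vertical axis, %) at or below a z score at 8 h (horizontal axis, drawn to 60) for 3 sets: those on the 926 regions, those on RelA regions with Ikaros at 3 and 8 h, and those new at 8 h that overlapped no wild-type RelA 3 h hotspot. The curve of the 926 regions, median 13.5, lies near that of the new hotspots, median 12.4, and left of the set with a median of 20.7.

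The region with the highest Ikaros z at 8 h, chr5:147617796-147618371, combined Ikaros at 36.4 with RelA at 13.6 at 3 h and 12.8 at 8 h. Its RelA and Ikaros centres lay 461 bp apart. The second was chr8:95404981-95405740, already named for its RelA. The third, chr17:34386556-34387582, had Ikaros at 33.8, RelA at 27.6 and 41.8 at 3 and 8 h in wild type, and RelA at 35.1 and 24.9 in littermates. Strong Ikaros was also listed at 8 h at weak RelA regions. At chr2:18576355-18576923 Ikaros reached 33.6 with a RelA z of 11.4 at 3 h, none at 8 h and 9.65 in littermates at 3 h, and at chr7:124830142-124830400 it reached 32.8 with RelA at 9.28 and none at 8 h.

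The next by Ikaros strength were chr17:43710458-43711183 (Ikaros z 32.3, RelA z 16.4 at 3 h), chr11:69222611-69223272 (30.8 and 17.9), chr3:157725001-157725581 (30.7 and 20.1), chr9:62676852-62677103 (30.1 and 9.37) and chr5:142870519-142870974 (29.6 and 12.2). RelA was listed at 8 h at the first and the third of these, with z of 11.8 and 23.0. The other 3 were in no RelA list besides the wild-type one at 3 h. At the chr11 region the centres lay 798 bp apart and an Ikaros 3 h hotspot stood 342 bp away.

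Strength of Ikaros at 8 h was nearly unrelated to strength of RelA at 3 h. Across the 926 regions Spearman's rho was 0.057 and Pearson's r of log2 z scores 0.077, a description over regions of 2 libraries. At regions with Ikaros at both times rho was 0.19. Among the 349 retained regions rho was 0.47 between RelA at 3 and 8 h and 0.14 between RelA and Ikaros at 8 h.

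**Figure D4:**
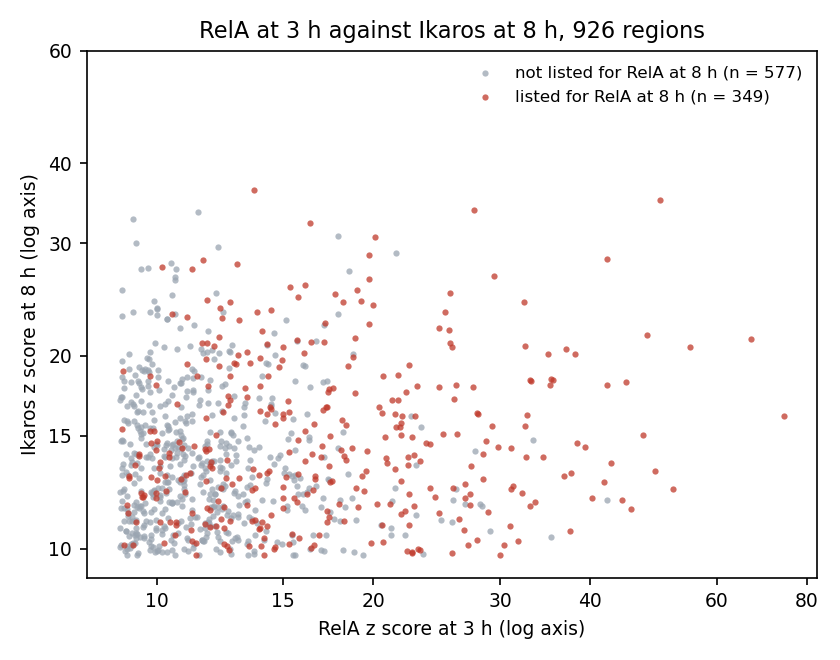
Ikaros z score at 8 h (vertical axis, log scale) against RelA z score at 3 h (horizontal axis, log scale) for the 926 regions, 349 listed for RelA at 8 h in red and 577 not listed in grey. Red points fill the right of the plot, at high RelA z, and the cloud shows little slope (rho 0.057).

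RelA was retained somewhat more often where the later Ikaros signal was strong. By quintile of Ikaros z within the 926, the share listed for RelA at 8 h was 31.2% (24.6 to 38.4), 31.9% (25.2 to 39.1), 40% (32.9 to 47.4), 36.8% (29.8 to 44.1) and 48.6% (41.2 to 56.1) from the weakest to the strongest. Median RelA z at 3 h lay between 11.8 and 12.6 in these quintiles. When each RelA quintile was parted at its own median Ikaros z, the stronger part had the higher share in 3 of 5, by -3.81 to 18.6 points. In RelA quintiles 4 and 5, 63.9% against 45.2% (difference 18.6 points, 3.52 to 32.6) and 92.9% against 74.6% (18.2 points, 6.06 to 30.1) were retained. In the 3 weaker quintiles the interval of the difference included 0.

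How the hotspots lay on each other is a description, since the rule asked for their overlap and thereby limits the distance between their centres. Centres of RelA at 3 h and Ikaros at 8 h were a median of 70.5 bp apart (quartiles 32.5 and 134, up to 798), with median widths of 517 and 542 bp. At 589 of the 926 regions they were within 100 bp, and at 847 the RelA centre fell inside the Ikaros hotspot. At regions with Ikaros at both times, chosen by overlap too, the median distance was 67.5 bp. Median distances were 65.5 bp where RelA was retained and 75 bp where it was not. RelA at 8 h was centred a median of 35.0 bp from RelA at 3 h.

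**Figure D5:**
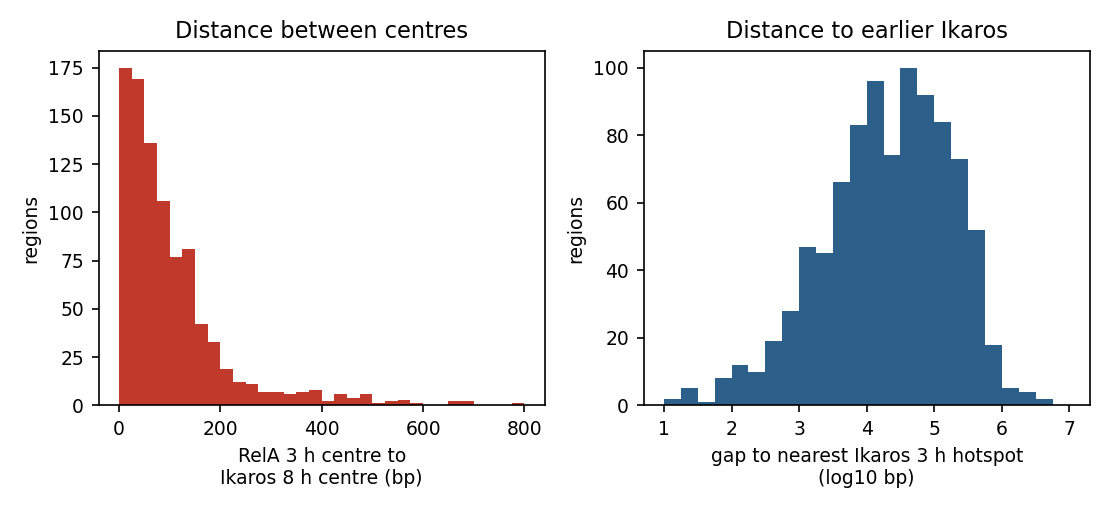
Left, number of the 926 regions by distance between RelA 3 h and Ikaros 8 h centres (bp, bins of 25). Right, number by gap to the nearest Ikaros 3 h hotspot (log10 bp). Centres are within 100 bp at 589 regions, whose overlap the rule required, while gaps to earlier Ikaros centre near a median of 25821 bp.

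Most of the regions had no Ikaros 3 h hotspot within 10 kb, but a larger share had one than among regions with no listed Ikaros. The gap to the nearest Ikaros 3 h hotspot had a median of 25821 bp and was at most 500 bp at 52 regions, 5.62% (4.22 to 7.30). For regions with no Ikaros that share was 4.05% (3.07 to 5.24). An Ikaros 3 h hotspot lay within 10 kb of 326, 35.2% (32.1 to 38.4), against 26.8% (24.5 to 29.2) of regions with no Ikaros. At 23 regions the Ikaros 8 h hotspot itself overlapped an Ikaros hotspot of 0 or 3 h that did not reach RelA, so these are not newly reached in the strict sense. Without them RelA was listed at 8 h at 38.2% of 903. The regions nearest to an Ikaros 3 h hotspot were chr8:34771461-34772049 and chr14:28164721-28165107, with gaps of 10 and 17 bp.

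The edges of the rule were as follows. The smallest overlaps with Ikaros at 8 h were 2 bp, at chr4:149433915-149434777 (RelA z 22.3), and 6 bp, at chr5:123157460-123157804 (RelA z 10.4). Just outside were chr2:84638103-84638592 (RelA z 11.1) and chr16:16358981-16359247 (9.69), with an Ikaros 8 h hotspot at 0 and 2 bp from their ends. A median of 86.8% of the RelA hotspot was covered by Ikaros, and 8 regions met more than 1 Ikaros 8 h hotspot.

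Seen from Ikaros, 924 of its 7913 hotspots new at 8 h overlapped a RelA 3 h hotspot, or 11.7%. Of the 5883 listed at 8 h and also at 0 or 3 h, 2366 did, or 40.2%. Both terms of this share belong to the rule, so it describes how much of the new Ikaros the regions cover.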

How the data were processed

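Hotspots of 10 libraries were used, 1 of them input. The input samples of littermate and Ikzf KO cells were not analysed here. The build is mm9 and a tool named is CASAVA, per the submitters' processing notes. Aligner, hotspot caller, threshold, use of input and coordinate base: not given in the sources used here. The deposited columns are highest and mean tag density, a signal of unstated scale, a z score within the library, and its p-value, which was not used, per the file headers.

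Overlap was counted as at least 1 bp of end minus start. Where several hotspots met, the one with the highest z was taken. Shares carry exact Clopper-Pearson intervals and differences Newcombe intervals. Weighted differences use normal intervals. The weighting over strata, the strata by Ikaros, the split by Ikaros within RelA quintiles, the shares among regions listed in littermates at 3 h and the shares by wild-type retention were added after results were seen. Intervals were not adjusted for the number of comparisons. Overlap code was tested on simulated lists. Regions named were the 10 highest by RelA and by Ikaros z, the 5 highest retained, not retained, and listed in both littermate times, and those at the edges of the rule. The members and comparisons were chosen with earlier results of these data known. The gene table at hand is of another assembly, so the planned gene and motif counts were not run. Python 3.11.15, numpy 2.4.6, pandas 2.3.3, scipy 1.17.1 and matplotlib 3.10.9 were used.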

Additional observations from a re-analysis of the deposited data

How the results depend on the processing

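Of 72 values from other settings of 10 results, 60 stayed within the 95% interval of the value reported, or within 1.5 times of the number of regions, and 12 did not. With as many of the highest-z Ikaros 8 h hotspots as there were at 3 h, 401 regions remained, with RelA listed at 8 h at 42.6%, littermate RelA at 41.6% at 3 h and 28.9% at 8 h, and a median Ikaros z of 17.7. This setting takes the strongest Ikaros hotspots alone. With RelA 3 h hotspots of z at least the lowest at 8 h, 608 regions remained, with 50.0%, 46.2% and 29.8% for the same lists, a median RelA z of 14.5 and a difference of 12.0 points at equal strength from regions with Ikaros at both times. There the unadjusted difference was 1.16 points against -2.58, both within counting error. Reciprocal overlap of 50% gave 699 regions and a median RelA z of 12.5. The difference from regions with no Ikaros lay between 20.2 and 23.4 points throughout. Keeping input hotspots left 926 regions. Each group is 1 library, so none could be left out, and depth is unknown. No paired analysis was possible because each group holds 1 library and no value comes from a test over samples. Alternatives for motifs and genes were not run.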

Other observations

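Any other RelA 3 h hotspot lay within 10 kb of 287 of the 926 regions, 31.0% (28.0 to 34.1), against 41.0% (38.9 to 43.2) of the regions with Ikaros at 3 and 8 h and 24.0% (21.8 to 26.4) of those with no Ikaros. A region with Ikaros at 3 and 8 h lay within 10 kb of 16.4% (14.1 to 19.0) of the 926, 25.8% (24.0 to 27.8) of the regions of that kind themselves and 12.7% (11.0 to 14.6) of those with no Ikaros. Another of the 926 lay within 10 kb of 93 of them, a number that depends on how many regions the rule takes. The 93 formed 36 pairs and 7 groups of 3, which were singled out after their values were seen. RelA was listed at 8 h at all 3 regions of the groups at chr10:88171379-88183169, chr13:5773003-5785055 and chr2:46215692-46228934, and at none of the 3 at chr14:71174043-71181115 and chr2:130912583-130915757. At chr10:67702065-67712542 and chr7:50922394-50927271 it was listed at 2 of 3.

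Regions lay on 20 chromosomes. The share of RelA 3 h hotspots that were reached later by Ikaros was 26.9% (21.0 to 33.4) on chromosome 13 and 11.7% (7.85 to 16.5) on chromosome 17, and the intervals of the other 19 chromosomes held the overall 18.6%.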
